A study of Mus musculus with 17 samples.

Results

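The genes examined were the splicing factors and hnRNP proteins of the mouse hypothalamus, the brain region that controls feeding, body temperature and hormone release. They were chosen by name: every probe set with a single gene symbol in the platform annotation that starts with Srsf, Hnrnp, Sf3a, Sf3b, U2af or Snrp, leaving out Snrpn. That gave 117 of 22626 probe sets, for 46 of the 12393 genes with a single symbol, and 110 of them (all 46 genes) were bright enough to be tested among 13576. A probe set is a group of short oligonucleotides on an Affymetrix array that together read 1 transcript, and many of these genes have several. By role they were 28 probe sets of 9 SR protein genes, 50 of 18 hnRNP genes, 3 of 3 U2AF genes, 22 of 9 SF3 genes and 14 of 7 snRNP genes.

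RNA from 17 hypothalami was measured, 1 array per hypothalamus, in 3 groups of male C57Bl/6 mice aged 9 weeks. The 5 ob/ob mice carry a mutation that leaves them without working leptin, the fat hormone that restrains appetite, and become obese. The 6 STZ mice were wild type and received streptozotocin, a toxin that kills the insulin-producing cells of the pancreas, in a single intraperitoneal injection of 200 µg per g of body weight. The 6 control mice were wild type and received vehicle, whereas the labels record no injection of ob/ob mice. Both models were set against the same control arrays, so their differences from control share that error. The p-values measure the spread between these hypothalami.

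Splicing removes introns from a newly made transcript. U2AF and the SF3 complexes of the U2 snRNP (a small nuclear RNA with its proteins) recognise the end of the intron and its branch point, while the Sm proteins form the ring around the RNA of the spliceosomal snRNPs. SR proteins bind mostly exons and favour their inclusion, hnRNP proteins coat nascent RNA and often repress nearby splice sites, and the ratio between them shapes alternative splicing, which is extensive in neurons. Several SR and hnRNP genes also make alternative transcripts that carry an early stop codon and are degraded.

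No splicing factor or hnRNP probe set differed between groups past the adjusted threshold in any of the 3 comparisons. With limma and Benjamini-Hochberg adjustment over all 13576 probe sets, 0 of 110 had an adjusted p under 0.05 for ob/ob against control (0.125% of all probe sets did), 0 for STZ against control (0.0516%) and 0 for ob/ob against STZ (0.0368%). The lowest adjusted p-values for ob/ob against control came from single probe sets of Hnrnpu, Srsf6 and Srsf1, with log2 fold changes of -0.27, -0.23 and -0.21. For ob/ob against STZ the lowest came from U2af1, at -0.36. The other probe sets of Hnrnpu stood nearer 0, and those of Srsf6 on the other side of 0. Whole hypothalamus was measured, so fewer cells of a type and less RNA per cell cannot be told apart.

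The 17 arrays had median signals between 638 and 707 and correlated with each other at 0.954 to 0.972, with 0 identical pairs. Of 17 hypothalamus-defining genes, 14 were on the array and 11 were tested, with a mean level that did not overlap between ob/ob (log2 signal 11.43 to 11.64) and control (11.66 to 11.89) and overlapped both in STZ (11.55 to 11.85). Of those 11, 1 was past the adjusted threshold against control in each model: Pomc, the melanocortin precursor, had a geometric mean signal of 997 in ob/ob, 1066 in STZ and 1678 in control (limma adjusted p = 0.0121 for ob/ob and 0.0384 for STZ). Ghrh, Nr5a1 and Otp lay under the signal filter. The mean level of 13 marker genes of neighbouring regions (striatum, cortex and hippocampus, thalamus) was 11.11 to 11.29 in ob/ob, 10.92 to 11.19 in STZ and 10.73 to 11.15 in control. It differed by 0.26 between ob/ob and control (exact permutation p = 0.0130, two-sided, 0.0390 after adjustment over 3 comparisons), by 0.13 between STZ and control (exact p = 0.117, adjusted 0.117) and by 0.13 between ob/ob and STZ (exact p = 0.0390, adjusted 0.0584). Of the choroid plexus list 1 gene was tested, Ttr, at 9.88 to 13.4 in ob/ob, 8.09 to 9.56 in STZ and 8.13 to 9.25 in control on the log2 scale. The part of these markers in the values that follow was not tested, except through a fit with the neighbouring-region level as a covariate.

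As a family the 110 probe sets lay close to no difference. The median log2 fold change was -0.03 for ob/ob against control, -0.0052 for STZ against control and -0.02 for ob/ob against STZ, beside -0.00051, 0.00060 and -0.00017 over all probe sets. Values below 0 numbered 71 of 110 for ob/ob against control, where 50.2% of all probe sets were below 0. They numbered 60 for STZ against control (49.7% of all) and 66 for ob/ob against STZ (50.1% of all). Averaged over the 110 probe sets, each array's level was 11.46 to 11.50 in ob/ob, 11.49 to 11.54 in STZ and 11.44 to 11.58 in control. The control arrays alone spanned the range of both models.

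The intervals of the differences were narrow. The 95% interval lay within 0.5 log2 units of 0 (a 1.41-fold difference) for 105 of 110 probe sets in ob/ob against control, 108 in STZ against control and 105 in ob/ob against STZ, beside 91.4%, 93.4% and 93.5% of all probe sets. It lay within 0.25 (1.19-fold) for 64, 70 and 74 of 110, beside 46.8%, 53.3% and 54.0% of all probe sets. The rest reached past 0.25. The 5 that reached past 0.5 in ob/ob against control were 1 probe set each of Hnrnpa2b1, Hnrnpul2, Sf3b3, Sf3b6 and Snrpa1.

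Before adjustment, 17 of 110 probe sets had p under 0.05 for ob/ob against control (6 higher, 11 lower), beside 11.9% of all probe sets (5.75% higher, 6.12% lower). The counts were 8 for STZ against control (4 higher, 4 lower), beside 8.24% of all (3.87% higher, 4.38% lower), and 1 for ob/ob against STZ (0 higher, 1 lower), beside 3.93% (1.93% higher, 2% lower). With each array centred on its median, the members split into 2 higher and 15 lower for ob/ob against control and 1 higher and 9 lower for STZ against control. Under that centring 10.97% and 8.29% of all probe sets had p under 0.05, and their split by direction is not given. The member splits therefore have no matching reference by direction, and a shift of the family was not tested. In the main fit, without that centring, the members' shares were 15.5%, 7.27% and 0.909%. The first was above that of all probe sets and the others below it, and these differences were not tested. The arrays of the 2 groups compared were fully separate in 0 of 110 probe sets in each comparison, beside 1.91% of all probe sets for ob/ob against control, 0.567% for STZ against control and 0.42% for ob/ob against STZ.

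**Figure D1:**
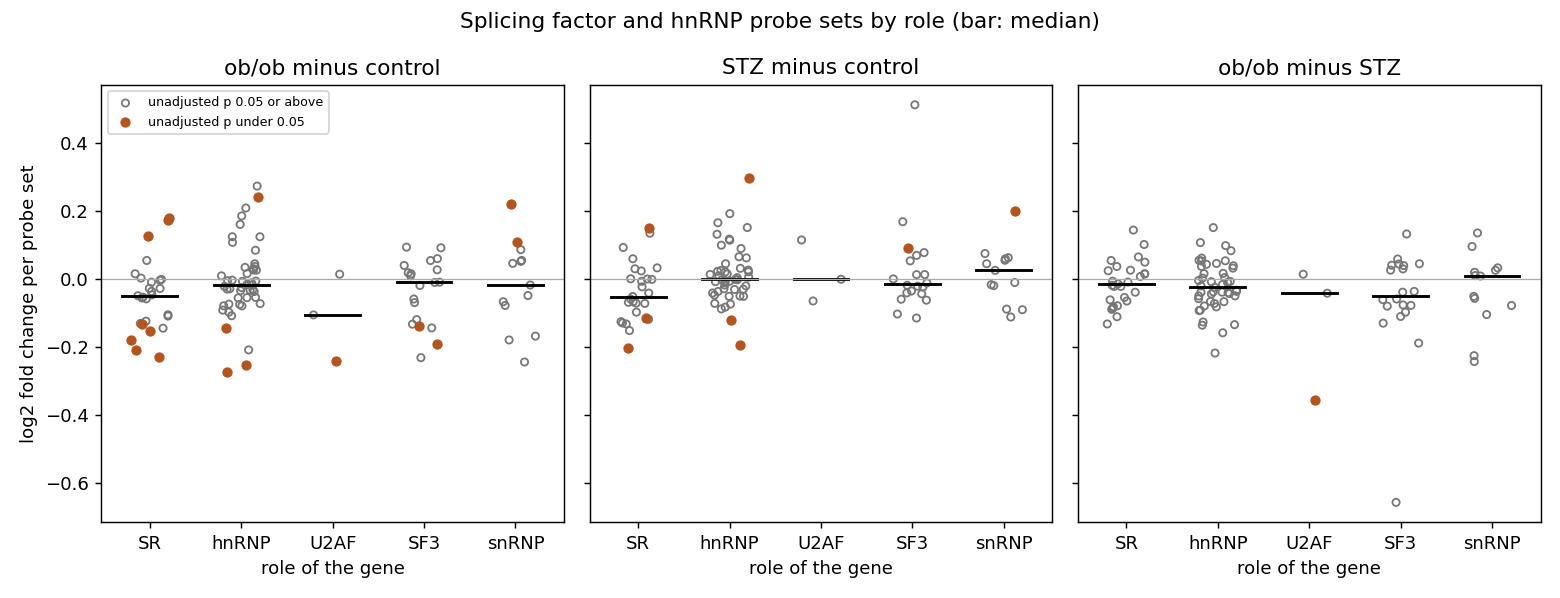
Log2 fold change of each of the 110 tested probe sets (points) by the role of its gene in the 3 comparisons, with the median of each role as a bar and filled points for unadjusted p under 0.05. Most points lie within 0.25 of 0 in every role, and 17, 8 and 1 points are filled.

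For ob/ob against control, SR proteins held the most probe sets with a low unadjusted p. Of 27 tested, 8 had p under 0.05 there (3 higher, 5 lower) and 3 for STZ against control (1 higher, 2 lower), with 0 for ob/ob against STZ, beside 11.9%, 8.24% and 3.93% of all probe sets. The 8 came from Srsf1, Srsf3, Srsf6 and Srsf10 only. Probe sets of the same gene count separately here, and of the 27, 6 were of Srsf1, 6 of Srsf3 and 4 of Srsf10. Log2 fold changes below 0 numbered 21 of 27 for ob/ob and 18 of 27 for STZ, each against control, with medians of -0.05 in both, beside 50.2% and 49.7% of all probe sets below 0. Each array's SR level nevertheless overlapped, at 11.26 to 11.32 in ob/ob, 11.26 to 11.37 in STZ and 11.27 to 11.45 in control.

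Srsf6 encodes an SR protein that binds exonic enhancers and acts in alternative exon choice, and its 3 probe sets stood on both sides of 0. Probe set 1448454_at read 3295, 3857, 3218, 3378 and 3412.5 in ob/ob, 3104 to 4144 in STZ (median 3794) and 3799 to 4214 in control (median 4031). Of the ob/ob arrays, 4 lay under every control array and the remaining one lay among them, and STZ arrays lay in both ranges. The log2 fold change was -0.23 ± 0.064 (SE) for ob/ob against control (limma adjusted p = 0.149) and -0.12 for STZ against control, and with the neighbouring-region level as a covariate it was -0.33 for ob/ob against control (adjusted p = 0.352).

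The other Srsf6 probe sets lay on the opposite side. Probe set 1416720_at read 3508, 3918, 3076, 2975 and 3023 in ob/ob, 2889 to 3588 in STZ (median 3182) and 2698 to 3013 in control (median 2945), so that 4 of 5 ob/ob arrays lay above every control array. Probe set 1416721_s_at read 3331, 3394, 3672, 3681 and 3476 in ob/ob, 2938 to 3820.3 in STZ (median 3493) and 2751 to 3690.5 in control (median 3126), with all 5 ob/ob arrays above 5 of the 6 control arrays. Their log2 fold changes for ob/ob against control were 0.18 ± 0.068 and 0.17 ± 0.074 (limma adjusted p = 0.295 and 0.352), and for STZ against control 0.15 and 0.14. Without ob/ob 2, 1416720_at stood at 0.11 for ob/ob against control (limma adjusted p = 0.517).

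Unequal movement of the probe sets within a gene was tested for 2998 genes with at least 2 tested probe sets, using limma's diffSplice, a test chosen after the data had been seen. For Srsf6 the F statistic was 10.4 in ob/ob against control, with an adjusted p of 0.187 over the 2998 genes, and the adjusted p in STZ against control was 0.714. Relative to the other Srsf6 probe sets, 1448454_at stood at -0.40 in ob/ob against control (limma adjusted p = 0.109) and -0.26 in STZ against control (adjusted 0.567). A gene whose probe sets differ in sign has no single direction, and the mean of the Srsf6 probe sets differed by 0.04 between ob/ob and control.

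Over the family, 29 genes had at least 2 tested probe sets, and 0 of them passed the adjusted threshold for unequal probe sets in any comparison, as 0 of all 2998 genes did. Before adjustment 5 of 29 had p under 0.05 for ob/ob against control, beside 6.1% of all genes: Srsf6, Hnrnpu, Snrpa1, Hnrnpab and Sf3a1. The 3 for STZ against control, beside 4.97% of all genes, were Srsf6, Hnrnpu and Srsf1, and for ob/ob against STZ there were 0, beside 1.93%. The signs of a gene's probe sets were all negative in 9 genes, all positive in 0 and mixed in 20 for ob/ob against control. For STZ against control they were all negative in 8, all positive in 4 and mixed in 17, and for ob/ob against STZ all negative in 6, all positive in 1 and mixed in 22. Such counts over all 2998 genes are not given. The member counts therefore have no reference, and a shared direction in the family was not tested.

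**Figure D2:**
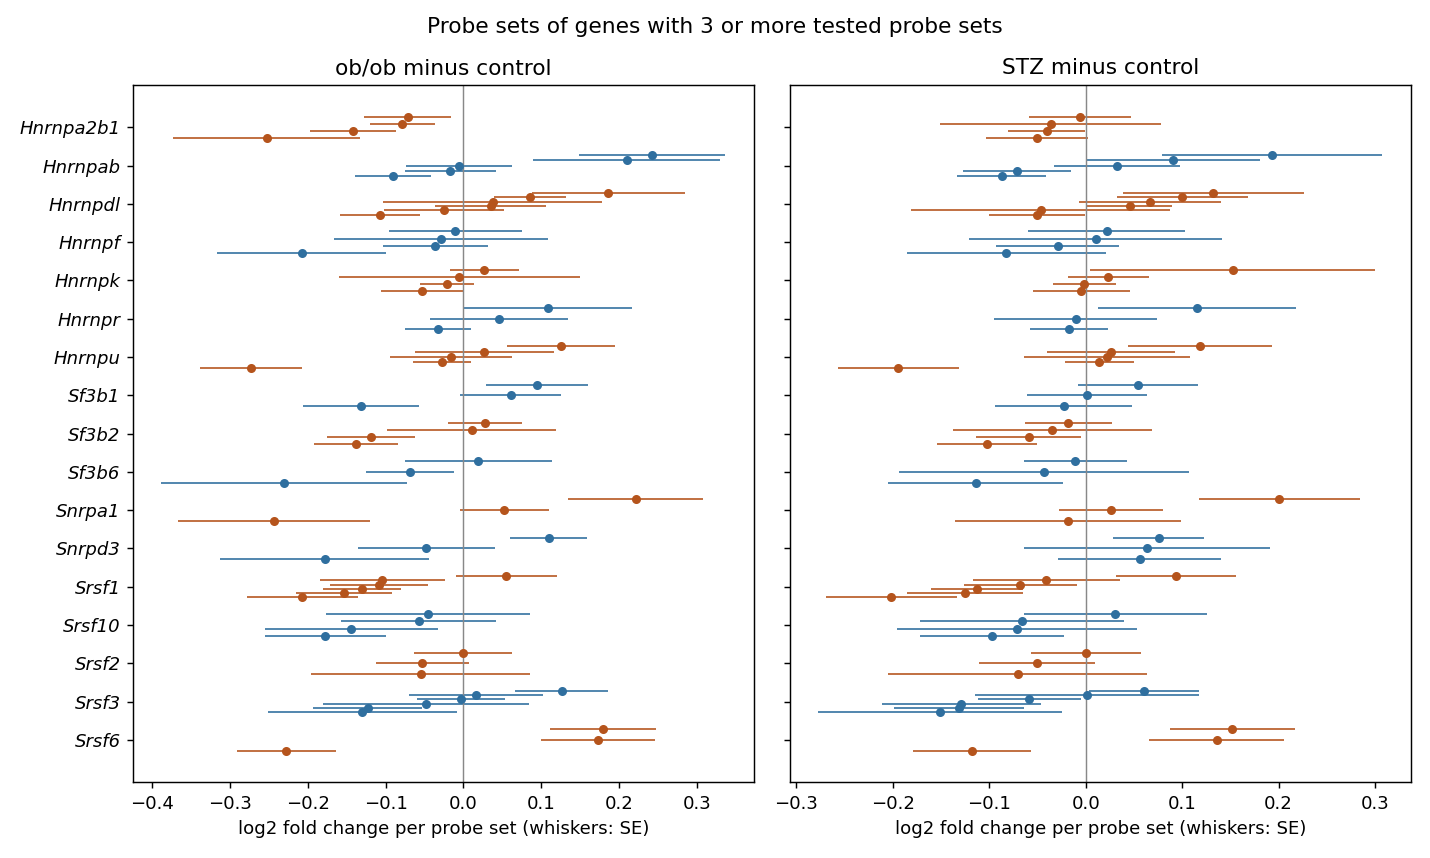
Log2 fold change of each probe set (points, with SE as whiskers) for the genes with 3 or more tested probe sets, in ob/ob minus control and STZ minus control, with colours alternating only to separate neighbouring genes. Srsf6 and Snrpa1, among other genes, have points on both sides of 0 in ob/ob minus control, and 1 Hnrnpu point stands apart at -0.27. All points of Hnrnpa2b1, Hnrnpf, Srsf2 and Srsf10 lie below 0 there.

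Srsf1, the founding SR protein, which binds purine-rich exon enhancers, had 6 tested probe sets. Probe set 1430982_at read 2051, 1827, 1961, 2185 and 1673 in ob/ob, 1757 to 2123 in STZ (median 1945) and 2014 to 2449 in control (median 2215). Of the ob/ob arrays 3 of 5, and of the STZ arrays 4 of 6, lay under the lowest control array. Its log2 fold change was -0.21 ± 0.071 for ob/ob against control (limma adjusted p = 0.243) and -0.20 ± 0.068 for STZ against control (adjusted p = 0.395).

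A further 4 Srsf1 probe sets were below 0 in both models, and 1, 1453722_s_at, stood at 0.06 for ob/ob and 0.09 for STZ. Among the 4, 1428099_a_at and 1452430_s_at stood at -0.15 and -0.13 for ob/ob against control (limma adjusted p = 0.322 and 0.298). For STZ against control the same 2 stood at -0.07 and -0.11 (adjusted 0.81 and 0.533). The values of the 2 models are not independent here, since the control arrays enter both.

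Srsf10 and Srsf3 each had 1 probe set with an unadjusted p under 0.05 for ob/ob against control. Srsf10, whose protein acts as a splicing repressor when dephosphorylated, had 1 probe set with a log2 fold change of -0.18 (1449121_at, limma adjusted p = 0.371). Srsf3, encoding the smallest SR protein and one that also couples splicing to RNA export, had 1 at 0.13 (1416150_a_at, adjusted p = 0.409) for ob/ob against control. Its brightest probe set stood at -0.0030 there and at -0.06 for STZ. Srsf2, a mainly nuclear SR protein, and Srsf5 had brightest probe sets at -0.00036 and -0.03 for ob/ob and at -0.05 and 0.03 for STZ, each with a limma adjusted p of 0.868 or above.

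Among hnRNP genes, Hnrnpu had the member probe set nearest the threshold. Its protein, a scaffold attachment factor, binds RNA and chromatin. Probe set 1450849_at read 2704, 2892, 2673, 2586 and 2531 in ob/ob, 2591 to 3044 in STZ (median 2850.5) and 2873 to 3633 in control (median 3287). Under the lowest control array lay 4 of 5 ob/ob arrays and 3 of 6 STZ arrays. The log2 fold change was -0.27 ± 0.066 for ob/ob against control (limma adjusted p = 0.0881) and -0.19 ± 0.063 for STZ against control (adjusted 0.374).

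The other 4 Hnrnpu probe sets did not share that value. They stood at -0.03 to 0.13 for ob/ob against control and at 0.01 to 0.12 for STZ against control. Relative to them 1450849_at stood at -0.30 in ob/ob against control (limma adjusted p = 0.224) and -0.24 in STZ against control (adjusted 0.513), and the mean of all 5 differed by -0.03 between ob/ob and control. Without control 4, whose value was the lowest of its group, 1450849_at passed the threshold in ob/ob against control (limma adjusted p = 0.0496), and with the neighbouring-region level as a covariate it stood at -0.32 (adjusted 0.403).

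**Figure D3:**
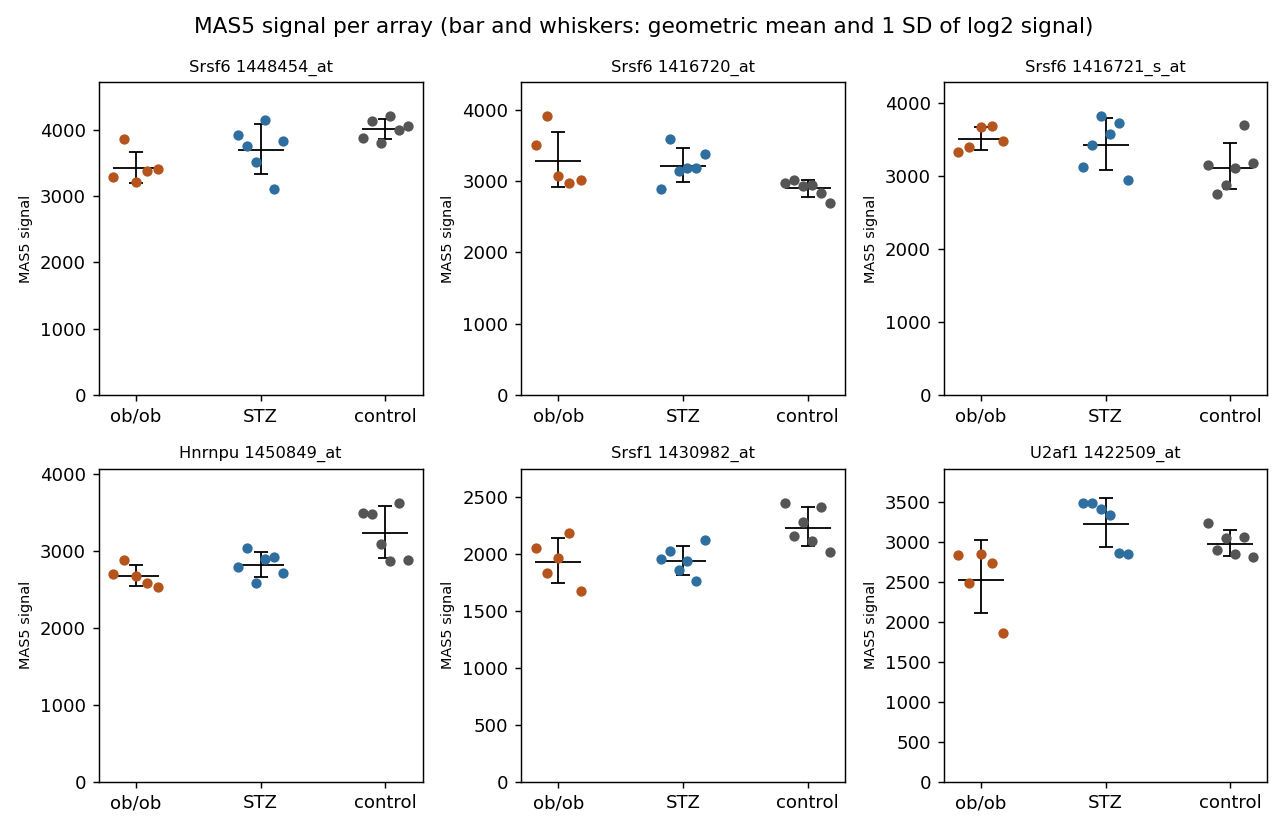
MAS5 signal on each array for the 3 Srsf6 probe sets and 1 probe set each of Hnrnpu, Srsf1 and U2af1, with a bar for the geometric mean and whiskers for 1 SD of log2 signal (n = 5 ob/ob, 6 STZ, 6 control). The Srsf6 panels differ in which group is higher, and in every panel the groups overlap.

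Hnrnpa2b1 encodes an abundant hnRNP that also sorts RNA for transport in neurons. Its 4 probe sets all stood below 0 for ob/ob against control, at -0.07, -0.08, -0.14 and -0.25, and at -0.0058 to -0.05 for STZ against control. The mean of the 4 differed by -0.14 between ob/ob and control (limma adjusted p = 0.223). The value of -0.25 ± 0.12 (limma adjusted p = 0.415) came from 1434047_x_at, of the kind whose probes can bind other transcripts. That probe set read 3952.5, 5615, 4928, 5161 and 5622 in ob/ob, 4459.7 to 6944.5 in STZ (median 5862) and 4329 to 6862 in control (median 6279.85). All 5 ob/ob arrays lay under 5 of the 6 control arrays, with control 4 among the ob/ob values. With the neighbouring-region level as a covariate the difference was -0.13, without control 4 it was -0.35, and without ob/ob 1 it was -0.17.

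Hnrnpab, whose protein binds RNA in the nucleus and cytoplasm, had 5 tested probe sets on both sides of 0. Probe set 1448144_at read 1151, 843, 1001.5, 1109.7 and 1068 in ob/ob, 831 to 986 in STZ (median 927) and 759.6 to 1033 in control (median 867). Every control array was exceeded by 3 of the 5 ob/ob arrays, and the log2 fold change was 0.24 ± 0.094 (limma adjusted p = 0.302).

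In STZ against control the hnRNP value furthest from 0 with a low unadjusted p was that of Hnrnpl, whose protein binds CA repeats and regulates nearby exons. Its single probe set, 1424101_at, read 1089, 869, 1087.5, 894 and 1030.1 in ob/ob, 855 to 1277 in STZ (median 1123) and 822 to 971 in control (median 867). Above every control array lay 4 of 6 STZ arrays, and 1 lay at the low end of the control range. The log2 fold change was 0.30 ± 0.097 for STZ against control (limma adjusted p = 0.383) and 0.16 for ob/ob against control.

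Hnrnpc, a core hnRNP that binds uridine tracts, had 1 probe set at -0.12 for STZ against control (1418693_at, limma adjusted p = 0.544) and its brightest at -0.0069. The brightest probe sets of Hnrnpa1, a silencer-binding repressor, and Hnrnpk, which binds C-rich RNA, stood at 0.13 and 0.03 for ob/ob against control and 0.06 and 0.02 for STZ against control. None of these had a limma adjusted p under 0.489. Over all 47 hnRNP probe sets, 1 was higher and 3 were lower at an unadjusted p under 0.05 for ob/ob against control. These were 2.13% and 6.38% of them, beside 5.75% and 6.12% of all probe sets, and the hnRNP median was -0.02.

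U2af1, the small U2AF subunit, which reads the AG at the end of the intron, was the 1 member with an unadjusted p under 0.05 between the models. Probe set 1422509_at read 2836, 2484, 2850.4, 2728 and 1854 in ob/ob, 2848 to 3487 in STZ (median 3367) and 2805 to 3228 in control (median 2969.65). Under every STZ array lay 4 of 5 ob/ob arrays, and 4 of 6 STZ arrays lay above every control array. The log2 fold change was -0.36 ± 0.092 for ob/ob against STZ (limma adjusted p = 0.555), -0.24 ± 0.092 for ob/ob against control (adjusted 0.299) and 0.12 for STZ against control. Without ob/ob 5, the lowest array, it was -0.25 for ob/ob against STZ (adjusted 0.794) and -0.13 for ob/ob against control (adjusted 0.532). U2af2, the large subunit, which binds the polypyrimidine tract, stood at 0.01 for ob/ob against control and at 8.3e-05 for STZ against control.

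SF3 subunits hold the U2 snRNP at the branch point. Of 20 tested probe sets, 2 were lower and 0 higher at an unadjusted p under 0.05 for ob/ob against control. Over all probe sets the shares were 6.12% lower and 5.75% higher. The 2 SF3 probe sets were Sf3b2 1456040_at at -0.14 (limma adjusted p = 0.307) and Sf3a1 1449333_at at -0.19 (adjusted 0.404). The Sf3a1 probe set read 1415, 1393.5, 1209, 1193 and 1152.5 in ob/ob, 1289 to 1511 in STZ (median 1394) and 1335 to 1929 in control (median 1368). Under every control array lay 3 ob/ob arrays, and without control 1, the array at 1929, the difference was -0.11 (adjusted 0.598). The other Sf3a1 probe set, 1419087_s_at, stood at 0.09 for ob/ob and 0.17 for STZ, each against control (limma adjusted p = 0.749 and 0.648). Sf3b1, the subunit that contacts the branch point, stood at 0.09 for ob/ob and 0.05 for STZ on its brightest probe set. Its probe set 1418561_at stood at -0.13 for ob/ob (limma adjusted p = 0.511) and -0.02 for STZ, each against control. The third, 1418562_at, stood at 0.06 and 0.0011. Sf3b4 stood at 0.09 for STZ against control (limma adjusted p = 0.598).

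Sf3b3, a large scaffold subunit of SF3b read by 1 probe set (1415985_at), fell into 2 levels that did not follow the groups. It read 3488, 1445, 1498, 1481 and 4216 in ob/ob, and 3086 to 4042.5 in STZ (median 3226). In control it read 4239.9, 3675, 4256, 1467, 1682 and 1129. The low level held 6 arrays (3 ob/ob, 0 STZ and 3 control) between 1129 and 1682, and the high level the other 11 between 3086 and 4256, with a 1.84-fold gap between them. The log2 fold changes were -0.14 for ob/ob against control, 0.51 for STZ against control and -0.66 for ob/ob against STZ, each with an unadjusted limma p above 0.05. The same 6 arrays stood apart from the other 11, without overlap, in 21 of all 22626 probe sets, this one included, 10 lower and 11 higher on those 6.

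**Figure D4:**
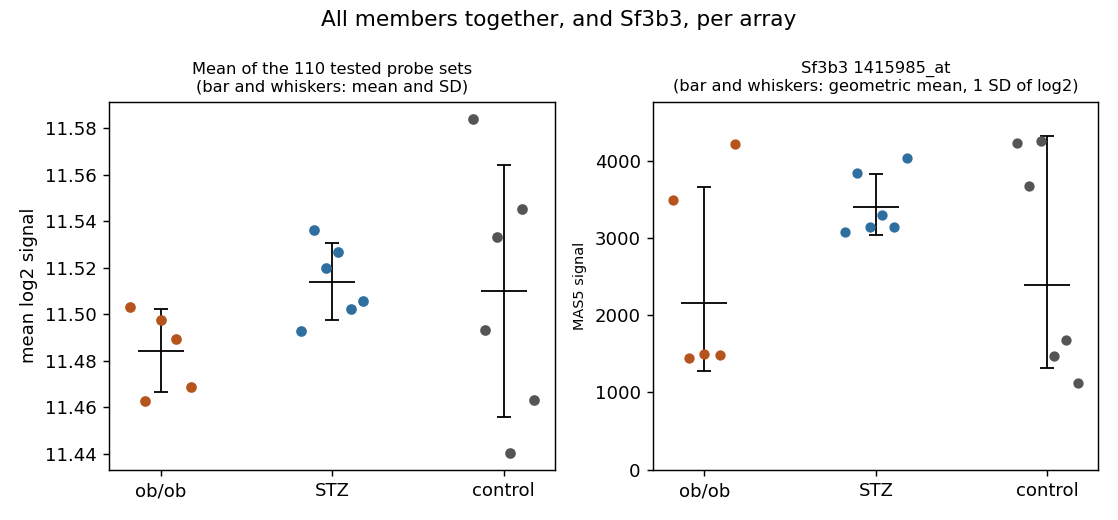
Left, mean log2 signal of the 110 tested probe sets on each array, with group mean and SD; right, MAS5 signal of the Sf3b3 probe set on each array, with geometric mean and 1 SD of log2 signal (n = 5 ob/ob, 6 STZ, 6 control). The control arrays span 11.44 to 11.58 on the left, and on the right 6 arrays lie at 1129 to 1682 and 11 at 3086 to 4256.

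At an unadjusted p under 0.05, 5.75% of all probe sets were higher and 6.12% lower for ob/ob against control. Among snRNP proteins, 2 of 13 tested probe sets were higher and 0 lower there. One was Snrpa1 1417352_s_at, for the A′ protein of the U2 snRNP, which read 1514.5, 1450.3, 1569, 1546 and 1459.5 in ob/ob, 1435 to 1602.5 in STZ (median 1473) and 1081 to 1654 in control (median 1300.15). All ob/ob and STZ arrays lay above 5 of the 6 control arrays and under control 6. The log2 fold change was 0.22 ± 0.087 for ob/ob and 0.20 ± 0.083 for STZ, each against control (limma adjusted p = 0.31 and 0.526), and with the neighbouring-region level as a covariate 0.14 for ob/ob.

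The second probe set of Snrpa1 stood at 0.05 and the third, 1417353_x_at, at -0.24 for ob/ob against control. The third is of the kind whose probes can bind other transcripts. The third read 1018.5, 1058, 1010.3, 1251 and 1263.5 in ob/ob, 964 to 1491 in STZ (median 1359) and 1042 to 1618 in control (median 1334), with overlap throughout. Snrpd3, a Sm ring protein, had 1 probe set at 0.11 (1449629_s_at, limma adjusted p = 0.385) and others at -0.05 and -0.18. Snrpb, which encodes a further Sm protein, stood at 0.06 for ob/ob and 0.05 for STZ, each against control.

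Genes that work with these factors gave a like picture. The lists, 8 in all, held 150 genes (other snRNP proteins, snRNP assembly, splice site partners, SR protein kinases, helicases, exon junction and decay factors, tissue splicing regulators and paraspeckle proteins), of which 115 were tested on their brightest probe set. None had an adjusted p under 0.05 in any comparison. At an unadjusted p under 0.05, 6 were higher and 7 lower for ob/ob against control (11.3%, beside 11.9% of all probe sets), 4 higher and 5 lower for STZ against control (7.83%, beside 8.24%), and 0 higher and 2 lower for ob/ob against STZ (1.74%, beside 3.93%).

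The smallest of these p-values for ob/ob against control belonged to Rbfox1, a neuronal regulator that binds UGCAUG near exons, and Khdrbs1 (Sam68), an RNA-binding protein that joins signalling to splicing. Rbfox1 had a geometric mean of 6302 in ob/ob, 5737 in STZ and 5427 in control, a log2 fold change of 0.22 ± 0.068 (limma adjusted p = 0.197). Khdrbs1 had 5778 in ob/ob, 6062 in STZ and 6542 in control, at -0.18 ± 0.059 (adjusted p = 0.223). Srpk1, a kinase that phosphorylates SR proteins, stood at -0.31 for ob/ob against control (limma adjusted p = 0.353).

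Tra2a, an SR-like enhancer-binding protein, stood at -0.22 for ob/ob and -0.20 for STZ, each against control (limma adjusted p = 0.322 and 0.544). Rnps1, a splicing activator that joins the exon junction complex, stood at 0.16 for ob/ob and 0.20 for STZ (adjusted p = 0.383 and 0.395). Between the models, Elavl1 (HuR), which binds AU-rich RNA, stood at -0.33 for ob/ob against STZ (limma adjusted p = 0.9996). The values of Tra2a and Rnps1 are, like those of Srsf1 and Hnrnpu, not independent between the models, which share the control arrays.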

How the data were processed

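RNA of 17 hypothalami was hybridised to Affymetrix mouse arrays. The deposited files hold linear intensity values, namely the MAS5 signals of the authors (the tool named in the submitters' processing notes, 1 value for a probe set on each array). The MAS5 version and the detection calls are not given in the sources used here. From the values, a 2% trimmed mean of 1500.37 to 1500.43 on every array shows scaling to a common mean. The 64 control probe sets were left out of 22690. After a log2 transform, a filter at the 40th percentile of the mean (a geometric mean signal of 435) kept 13576 probe sets.

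Groups came from the array titles. The 3 group means entered 1 limma fit (limma 3.58.1, lmFit then eBayes, trend on, under R 4.3.3), with Benjamini-Hochberg adjustment over 13576 probe sets and a threshold of 0.05, and the procedure was tested on simulated data. The number of arrays limits the precision. Whether the array numbers pair the groups was checked by correlating deviations from the group means: the 16 same-number pairs gave -0.17 to 0.11 and the 80 others -0.37 to 0.40, so no block was used.

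The members and the gene lists were chosen with earlier results of these data known. Members were found by symbol in GEO's platform annotation, and all 46 genes matched the RefSeq GRCm38.p6 gene table by Entrez identifier. A further 15 probe sets of these families carry several symbols and were left out. The 7 members under the filter had geometric means of 44.9 to 405, and the 3 dimmest above it 588, 595 and 673. Named members were up to 6 in each direction and comparison with the largest log2 fold change at an unadjusted p under 0.05, any past the adjusted threshold, and 18 examples fixed by role, of which 15 had a member probe set. A gene's brightest probe set represents it, with _x_at kinds used only where there was no other. From each list up to 3 genes with the smallest p were named. Alternatives were no filter, a filter at the 60th percentile, quantile and median scaling, an offset of 64, no trend, array weights, the replicate block, a neighbouring-region covariate, only the 2 groups compared, gene means, and leaving out each array. The genome build of the probe sets is not given in the sources used here, so no coordinates are printed.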

Additional observations from a re-analysis of the deposited data

Results flagged for a closer look

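For 28 named probe sets and the mean of the 110 tested probe sets, 87 groups of arrays were checked. The check was for a single array standing far from the rest of its group, and 7 were found. Chance alone finds about 1 in 20 such groups. In STZ, Snrpa1 1417352_s_at read 1602.5 on array 1, against 1435 to 1482 on the others. Srsf3 1416150_a_at read 3951.7 on STZ 5, against 4468 to 4639 on the others. Hnrnpk 1460547_a_at read 19083.6 on STZ 4, against 17134 to 17797, and U2af2 1417260_at read 3668.7 on STZ 6, against 2575 to 2870.4. In control, Hnrnpc 1418693_at read 3271 on array 1, against 2688 to 2862, and Sf3a1 1449333_at read 1929.2 on the same array, against 1335 to 1404. Hnrnpa2b1 1434047_x_at read 4329.1 on control 4, against 5896 to 6862. None of the 7 was an ob/ob array.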

How the results depend on the processing

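No splicing factor or hnRNP probe set passed the adjusted threshold under any alternative in STZ against control or ob/ob against STZ. In ob/ob against control 1 did, Hnrnpu 1450849_at without control 4 (limma adjusted p = 0.0496), and its adjusted p ran from 0.0496 to 0.403 over the alternatives on that probe set. No value past the threshold changed sign. No family median moved by more than the spread between arrays, an SD of 0.034. Each median lay nearer 0 than that in the main fit, so this rule could not show that a median held. The median of STZ against control lay on both sides of 0. It was -0.01 to 0.01 leaving out 1 array and -0.04 with median centring. With quantile scaling and with the covariate it lay just above 0. With the mean of a gene's probe sets 9 named values changed sign, among them, for ob/ob against control, Srsf6 1448454_at (0.04), Srsf3 1416150_a_at (-0.03) and Snrpd3 1449629_s_at (-0.04), and, for STZ against control, Srsf6 1448454_at (0.06) and Sf3a1 1449333_at (0.05). Over the whole table, the 17 calls of ob/ob against control became 29 with quantile scaling, 11 with median centring, 38 with array weights, 6 with only the 2 groups compared and 0 with the neighbouring-region level as a covariate, where 1052 probe sets had an unadjusted limma p under 0.05 against 1611 without it. The 5 of ob/ob against STZ became 1 without the filter, 3 with the filter at the 60th percentile, 10 with array weights, 1 with the replicate block, 1 with the covariate and 1 with only the 2 groups compared. Genes with unequal probe sets numbered 2 without the filter and 1 with array weights for STZ against control, and 1 with the replicate block for ob/ob against control, none of them a member. Leaving out 1 array gave 8 to 43 calls for ob/ob against control, 0 to 18 for STZ against control and 1 to 9 for ob/ob against STZ, with 0 to 1, 0 to 0 and 0 to 0 of them members, and 0 to 2, 0 to 2 and 0 to 0 genes with unequal probe sets. The count for ob/ob against control moved by over 1.5 times without control 1 (8), 2 (38), 3 (8), 4 (43), 5 (9) or 6 (9) or ob/ob 2 (9), 4 (11) or 5 (9). That for STZ against control did so without control 1 (4), 4 (4) or 5 (1) or STZ 1 (18), 3 (12), 4 (0, with 934 at an unadjusted p under 0.05) or 5 (0, with 875), and that for ob/ob against STZ without STZ 1 (9), 2, 4 or 5 (1 each) or 6 (3) or ob/ob 2 or 3 (1 each) or 4 (2). The array numbers did not pair the groups (2 of 17 arrays correlated best with their own number), and with the replicate block members called stayed at 0. Signal over background was judged only by the filter on mean signal, and the cause of each shift was not tested.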

Other observations

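The 6 arrays with a low Sf3b3 signal were ob/ob 2, 3 and 4 and control 4, 5 and 6. Further splicing genes were among the 21 probe sets that separated these arrays from the other 11. On the log2 scale, the low arrays minus the others, Prpf4b, a kinase of the spliceosome, stood at -0.23, Scaf11, an SR-related factor, at -0.28, and Snrnp27, a tri-snRNP protein, at 0.38. These genes were noticed after their values were seen, and the arrays were split by the Sf3b3 signal itself, so the values are a description.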
